A study of Mus musculus with 16 samples.

Results

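The 10 genes of the actin cytoskeleton described here are Actb, Actg1, Myh9, Flna, Actn1, Actn4, Tpm1, Cald1, Tagln and Vim. They were chosen by name, out of 21938 protein-coding genes on the nuclear chromosomes, as genes that fibroblasts use heavily. Earlier results of these data were known when they were chosen. A DRIP-seq peak was assigned to a gene where it overlapped the gene body or the 1000 bp on either side (GENCODE release 21 for mouse, build GRCm38) by at least 1 bp. Across 8 peak lists, 101 peaks met this rule, 99 of them in knockout and 2 in wild-type cells. In DRIP-seq, hybrids of DNA and RNA are pulled down from genomic DNA with the antibody S9.6 and the DNA is sequenced. The cells were mouse fibroblasts of the NIH/3T3 line, wild type (WT) or carrying a CRISPR-Cas9 knockout (KO) of Xpo4, which encodes the nuclear export receptor exportin 4. The number of KO clones is not stated in the sources used here. Before the pull-down, DNA was incubated with buffer (RNase R-) or with RNase R (RNase R+), an exonuclease to which linear RNA is sensitive and circular RNA resistant, which gives 4 groups of 2 replicate lists. Following the study's terms, RNase R- peaks are called R-loops and RNase R+ peaks ciR-loops.

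An R-loop forms where an RNA pairs with 1 strand of the DNA and displaces the other, usually behind or near a transcribing polymerase, and stretches in which the displaced strand is rich in G are known to favour it. Actin monomers polymerise into filaments that are crosslinked by filamin and alpha-actinin, pulled by non-muscle myosin, and lined or regulated by tropomyosin, caldesmon and transgelin. Vimentin forms the separate intermediate filaments of mesenchymal cells. RNA was not measured in these libraries, so the expression of the 10 genes was not checked, and peak lists do not check the knockout.

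All 10 genes carried R-loop peaks in both KO lists. The 10 genes held 38 peaks in KO RNase R- replicate 1 and 34 in replicate 2 (36 ± 2.83, SD, n = 2 lists), 17 and 10 in KO RNase R+ (13.5 ± 4.95, SD, n = 2), 2 and 0 in WT RNase R-, and 0 and 0 in WT RNase R+. Both WT peaks lay in Cald1. From length alone, the 515 kb of gene bodies and flanks (0.0189% of the nuclear chromosomes) would hold 4.97 and 6.08 peaks of the KO RNase R- lists, so that the observed number was 7.64 and 5.59 times the expected one. The ratio over all protein-coding genes was 1.22 and 1.21 in the same lists. In KO RNase R+, 1.2 and 1.13 peaks were expected, and the observed number was 14.2 and 8.86 times that, against 1.28 and 1.17 for all protein-coding genes.

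Set against all protein-coding genes, a peak in both KO RNase R- lists was found in 10 of the 10 genes and in 26.5% of all. Since the 10 genes were chosen with earlier results of these data known, such shares are descriptions. Longer genes have more room for a peak, so the share was also taken by length. Of the 4 genes up to 10 kb (Actb, Actg1, Tagln, Vim) all 4 had such peaks against 10.9% of protein-coding genes of that length. Both genes of 10 to 50 kb (Flna, Tpm1) had them against 24.3%, and all 4 genes of 50 to 200 kb (Myh9, Actn1, Actn4, Cald1) against 46.9%. ciR-loop peaks in both KO RNase R+ lists were found in 6 of the 10 genes (Actg1, Myh9, Actn4, Tpm1, Cald1, Vim) against 5.85% of protein-coding genes. A WT RNase R- peak was found in 1 of 10 against 6.91%, and a WT RNase R+ peak in 0 of 10 against 0.67%.

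The KO and WT lists did not overlap for any of the 10 genes without RNase R: both KO lists were above both WT lists in 10 of 10 genes, a pattern seen in 24.2% of protein-coding genes. With RNase R this held for 6 of 10 genes against 5.64%. For 2 lists against 2 the smallest p of an exact permutation test is 0.33, so labels were permuted within RNase R treatment over all 8 lists for each of 10037 genes with a peak. Of the 10 genes, 6 (Actg1, Vim, Myh9, Tpm1, Actn4, Cald1) reached the smallest p that this exact test can give (0.0556, two-sided), as did 10.4% of all genes tested, and their Benjamini-Hochberg adjusted p was 0.536. Flna and Actn1 had p = 0.167, and Actb and Tagln p = 0.333 (adjusted p = 0.604 for Actb) in the same exact permutation test. No gene passed an adjusted p of 0.05, and 0 genes had an unadjusted p under it, since the design cannot reach that value.

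The lists differ greatly in size, and this bears directly on the comparison. The KO RNase R- lists held 26219 and 32031 peaks and the KO RNase R+ lists 6372 and 5996, whereas the WT RNase R- lists held 3885 and 2171 and the WT RNase R+ lists 271 and 352. From length alone, 0.730 and 0.405 peaks at the 10 genes were expected in WT RNase R-, and 0.0499 and 0.0654 in WT RNase R+, so a WT list without a peak at these genes carries little information. The lowest level that the peak caller expected at a peak, its background level, also differed between the genotypes. It was 0.843 and 0.896 fragments in KO RNase R-, 0.924 and 0.89 in KO RNase R+, 0.479 and 0.489 in WT RNase R-, and 0.425 and 0.558 in WT RNase R+. The study also reports far fewer uniquely mapped reads for both WT RNase R- immunoprecipitates than for the KO ones. With RNase R, the WT read numbers lay on both sides of the KO ones. Lists of equal peak number, used next, do not equalise read depth. The part of background level and read depth in the difference was not tested. When each KO list was reduced to its most significant peaks, as many as the same-numbered WT list held, the KO RNase R- lists still had 16 and 12 peaks at the 10 genes against 2 and 0 in WT. These were 21.8 and 29.3 times the 0.733 and 0.409 expected. At this equal number, 7 of the 10 genes had both KO lists above both WT lists, and the exceptions were Flna, Actn1 and Tagln. Of all protein-coding genes, 2.9% had this pattern at equal number. The reduced KO RNase R+ lists held 1 peak each at these genes, in Cald1, against 0 and 0 in WT.

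**Figure D1:**
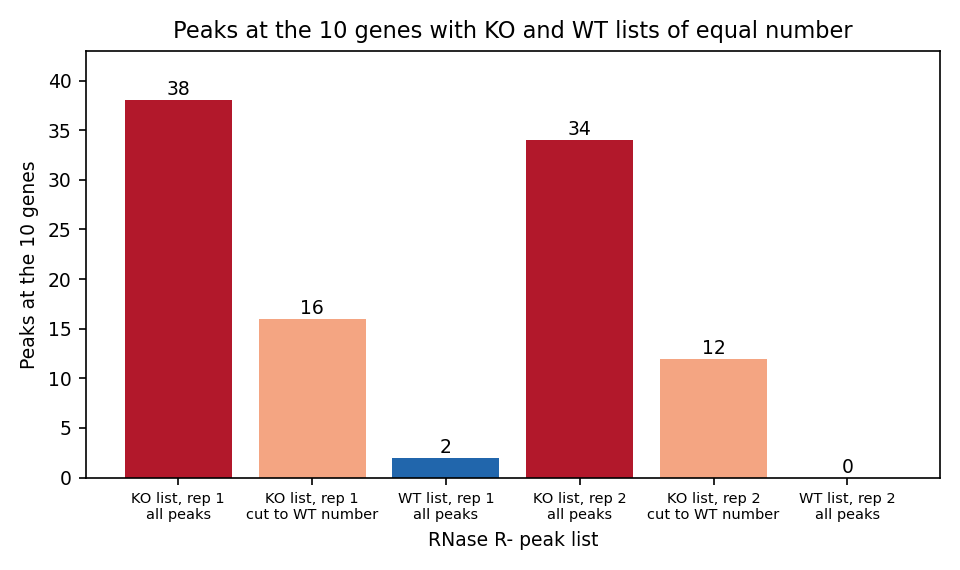
Peaks at the 10 genes in each RNase R- list (bars, from 0), with the KO lists complete and reduced to the number of peaks in the same-numbered WT list. At equal number the KO lists held 16 and 12 peaks and the WT lists 2 and 0.

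The actins were the most densely covered of the 10 genes. Actb (ENSMUSG00000029580.14, 3.64 kb) and Actg1 (ENSMUSG00000062825.15, 2.85 kb) encode the beta and gamma actins of non-muscle cells. Actb had 4 and 2 R-loop peaks in the KO RNase R- lists, where 0.0569 and 0.0697 were expected, and no peak in any of the other 6 lists. Actg1 had 3 and 2, where 0.0494 and 0.0604 were expected, and 1 and 1 ciR-loop peaks in KO RNase R+. Of protein-coding genes of 0.5 to 2 times the length of Actb, 0.714% had at least its 6 peaks over the 2 lists, and 1.19% of those comparable to Actg1 had at least 5.

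In Actb, 2 regions were called in both KO RNase R- lists. The first lay in intron 1 at chr5:142906357-142906585, 240 bp from the gene start, with fold enrichments of 15.3 and 10.0. The other covered exon 3 of 6 and its coding sequence at chr5:142905203-142905514, with folds of 24.2 and 13.1, and 24.2 was the highest of the 101 peaks. In both regions 41 or more fragments covered the summit. In Actg1, the region at chr11:120347482-120348101 (folds of 12.6 and 21) had its summit in an exon of a noncoding transcript, which is intron 2 of a transcript with 6 exons, and reached into coding exons. A second Actg1 region, at chr11:120344891-120345789 just past the 3′ end, was called in all 4 KO lists, with folds of 11.8 and 8.02 in KO RNase R- and 4.63 and 5.29 in KO RNase R+. Both actin genes have processed copies elsewhere in the genome, and reads without a unique position were removed by the authors, so the height of these peaks is uncertain to that extent.

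Myh9 (ENSMUSG00000022443.17, 81.6 kb), the heavy chain of non-muscle myosin IIA, held more peaks than any other of the 10 genes. It had 9 and 11 R-loop peaks in the KO RNase R- lists, where 0.805 and 0.984 were expected, 4 and 2 in KO RNase R+, where 0.194 and 0.182 were expected, and 0 in the 4 WT lists. The 2 KO RNase R- ratios were both 11.2. Only 6 of 4703 protein-coding genes of 0.5 to 2 times its length (0.128%, Myh9 included) had at least 20 peaks over both lists.

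The Myh9 regions called in both lists lay at the 2 ends of the gene. Regions called in replicate 2 alone lay between them, at 11.3%, 59.9%, 63.1% and 69.9% of the body. Of its regions, 7 were called in both KO RNase R- lists. The first lay in intron 1, 2120 bp from the gene start, at chr15:77839271-77840305, and was called in all 4 KO lists, with folds of 15.5 and 15.8 without and 9.37 and 8.24 with RNase R. The other 6 lay between 82.2% and 95.3% of the gene body or at its 3′ end: at exon 22 (chr15:77774954-77775307, folds of 5.97 and 12.5), exon 27 (chr15:77770933-77771994, 12.8 and 11.6), exon 33 (chr15:77766426-77767580, 8.68 and 9.49), intron 34 (chr15:77765511-77766156, 5.47 and 4.26), intron 36 (chr15:77764061-77765140, 10.1 and 7.91) and the 3′ end itself (chr15:77760146-77760619, 9.22 and 7.84). The exon 27 region was called in all 4 KO lists, with folds of 5.66 and 8.17 in KO RNase R+. The intron 1 region is printed as a ciR-loop and R-loop region with a G-rich gene strand (102 G against 60 C in 300 bases). The printed sequences (GRCm38) are the stretch common to the lists that called a region, at most 300 bases about the summit, on the gene's strand, 5′ to 3′, and capitals mark the longest run of only purines or only pyrimidines.
Myh9 intron 1, minus strand (chr15:77839883-77840182): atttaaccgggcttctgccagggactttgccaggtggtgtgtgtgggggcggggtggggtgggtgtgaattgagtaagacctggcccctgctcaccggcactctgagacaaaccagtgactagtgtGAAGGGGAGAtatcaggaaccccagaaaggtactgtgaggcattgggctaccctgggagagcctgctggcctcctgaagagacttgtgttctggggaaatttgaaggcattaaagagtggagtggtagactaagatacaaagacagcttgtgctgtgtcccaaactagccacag

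The crosslinkers ranged from dense to near the number expected. Flna (ENSMUSG00000031328.15, 26.4 kb), an X-linked gene whose product filamin A joins actin filaments into networks, had 3 and 4 R-loop peaks in KO RNase R- (10.9 and 11.9 times the expected number), 1 and 0 in KO RNase R+ and 0 in the 4 WT lists. Its 3 regions called in both lists lay at exon 6 (chrX:74241751-74242118, folds of 9.77 and 10.5), intron 9 (chrX:74240980-74241402, 5.63 and 7.38) and intron 24 (chrX:74234899-74235434, 6.93 and 6.33) of 47 exons. Flna was the only 1 of the 10 genes with no region called in both lists in the first 25% of its body.

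Actn1 and Actn4 encode the alpha-actinins of non-muscle cells, which bundle actin filaments. Actn1 (ENSMUSG00000015143.15, 92.8 kb) had 3 and 2 R-loop peaks, 3.29 and 1.79 times the expected number, 1 and 0 ciR-loop peaks and 0 in the 4 WT lists. Both Actn1 regions called in both KO RNase R- lists lay in intron 1, at chr12:80257260-80257785 (folds of 11.9 and 10.6, and 5.54 in KO RNase R+ replicate 1) and at chr12:80240150-80240564 (4.98 and 5.00). Actn4 (ENSMUSG00000054808.15, 69.1 kb) had 1 and 1 R-loop peaks, 1.46 and 1.19 times the expected number, and 1 and 1 ciR-loop peaks. All 4 Actn4 peaks formed 1 region, 1444 bp wide, at exon 1 (chr7:28960836-28962279), with folds of 9.69 and 14.9 without and 8.82 and 6.86 with RNase R. By number Actn4 did not stand out, since 45.0% of protein-coding genes of 0.5 to 2 times its length had at least 2 peaks, and the corresponding share for Actn1 was 13.0%.

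Among the genes of filament-binding proteins, Tpm1 (ENSMUSG00000032366.15, 26.8 kb) encodes a tropomyosin, which lies along the filament. It had 2 and 2 R-loop peaks (7.16 and 5.86 times the expected number), 2 and 1 ciR-loop peaks and 0 in the 4 WT lists. The region at chr9:67043371-67043776, with its summit in intron 2 in 3 lists and in an alternative coding exon in KO RNase R+ replicate 1, was called in all 4 KO lists, and its folds of 11.4 and 21.6 in KO RNase R- and 11.4 and 10.6 in KO RNase R+ overlap. The other, at chr9:67047515-67048759 near the gene start, had folds of 13.6 and 11.8, and 6.24 in KO RNase R+ replicate 1. The region called in all 4 lists is printed, with 65.3% G+C and 23 CpG in 300 bases.
Tpm1 alternative exon end and intron 2, minus strand (chr9:67043374-67043673): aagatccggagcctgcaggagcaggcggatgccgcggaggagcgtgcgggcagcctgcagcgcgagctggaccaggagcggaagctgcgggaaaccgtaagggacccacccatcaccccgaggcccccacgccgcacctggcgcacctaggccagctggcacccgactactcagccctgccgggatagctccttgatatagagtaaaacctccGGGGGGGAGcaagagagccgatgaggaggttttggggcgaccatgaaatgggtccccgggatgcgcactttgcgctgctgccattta
Tagln (ENSMUSG00000032085.5, 6.44 kb), the gene of the actin-binding protein transgelin, had 1 and 2 R-loop peaks (11.9 and 19.5 times the expected number) and none in the other 6 lists. Its 1 region called in both lists lay in intron 1 (chr9:45935034-45935712, folds of 8.55 and 5.31). One Tagln summit also lay inside the antisense gene Gm48529, and DRIP-seq peaks carry no strand.

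Cald1 (ENSMUSG00000029761.16, 177 kb), whose product caldesmon binds actin and tropomyosin, was the longest of the 10 genes and the only 1 with WT peaks. It had 11 and 6 R-loop peaks in KO RNase R-, where 1.72 and 2.10 were expected, 6 and 4 ciR-loop peaks in KO RNase R+, where 0.415 and 0.390 were expected, 2 and 0 in WT RNase R- and 0 and 0 in WT RNase R+. Of protein-coding genes of 0.5 to 2 times its length, 0.413% had at least 17 peaks. In Cald1, 3 regions were called in all 4 KO lists. The widest, 3016 bp, lay in intron 1 about 4152 bp from the gene start (chr6:34600626-34603641), with highest folds of 17.4 and 17.0 without and 15.7 and 13.5 with RNase R. The others covered coding exon 5 (chr6:34745789-34746691, folds of 14.3, 16.7, 6.23 and 14.8 in the order of the lists) and coding exon 7 (chr6:34755629-34755950, 7.05, 13.7, 8.32 and 5.82). Regions called in both KO RNase R- lists alone lay in intron 1 (chr6:34627656-34628172, 6.51 and 5.80) and intron 2 (chr6:34673487-34673779, 5.65 and 6.43). In addition, 3 Cald1 summits lay inside the antisense gene Gm14547.

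Both WT peaks of Cald1 lay where a KO peak was also called. At intron 3 (chr6:34728673-34728940) the folds were 8.28 and 9.41 in KO RNase R- and 6.76 in WT RNase R- replicate 1, on summits of 16, 17 and 9 fragments. At chr6:34750032-34750468 the folds were 13.4 in KO RNase R- replicate 1 and 7.44 in WT RNase R- replicate 1, on 24 and 10 fragments. Each WT summit was called in 1 of 2 replicates. The coding exon 5 region and the intron 3 region shared with WT are printed side by side, since both hold long runs but of opposite kind on the gene's strand (30 purines and 68 pyrimidines).
Cald1 exon 5, plus strand (chr6:34745922-34746221): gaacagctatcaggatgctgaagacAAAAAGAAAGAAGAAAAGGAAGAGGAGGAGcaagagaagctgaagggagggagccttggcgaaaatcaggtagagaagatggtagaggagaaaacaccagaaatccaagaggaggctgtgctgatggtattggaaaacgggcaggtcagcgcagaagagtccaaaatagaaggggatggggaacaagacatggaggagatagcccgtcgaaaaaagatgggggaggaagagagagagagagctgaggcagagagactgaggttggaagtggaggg
Cald1 intron 3, plus strand (chr6:34728675-34728894): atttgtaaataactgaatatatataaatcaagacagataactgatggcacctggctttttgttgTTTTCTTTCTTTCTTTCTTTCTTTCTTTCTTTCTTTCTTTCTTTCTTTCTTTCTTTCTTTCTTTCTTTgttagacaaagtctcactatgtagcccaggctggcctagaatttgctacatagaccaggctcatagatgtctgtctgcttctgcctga

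Vim (ENSMUSG00000026728.9, 8.90 kb) had 1 and 2 R-loop peaks in the KO RNase R- lists (9.31 and 15.2 times the expected number), 1 and 1 in KO RNase R+ and 0 in the 4 WT lists. Its R-loop region at the end of exon 1 and in intron 1 (chr2:13574836-13575212) had folds of 17.6 and 21.9, and its summit of 64 fragments in replicate 2 was the highest of the 101 peaks. No ciR-loop peak was called there. The ciR-loop peaks of Vim lay elsewhere, in intron 4 (chr2:13578941-13579610, folds of 4.01 and 8.47), where 1 of 2 KO RNase R- lists had a peak (8.97).

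Across the 10 genes, the ratio of observed to expected R-loop peaks thus fell into a wide range. Over both KO RNase R- lists it was 47.4 for Actb, 45.5 for Actg1, 16.1 for Tagln, 12.6 for Vim, 11.5 for Flna, 11.2 for Myh9, 6.44 for Tpm1, 4.45 for Cald1, 2.47 for Actn1 and 1.31 for Actn4. The replicate lists set apart the 2 actins (28.7 to 70.3 in single lists) from the other 8 genes, whose highest single value was 19.5. The values of Tagln, Vim, Flna and Myh9 lay between 9.31 and 19.5 and overlapped, so their order is not resolved. The expected number scales with length, and the 2 shortest genes had the highest ratios and the 4 longest included the 3 lowest. As peaks per 10 kb of body and flanks, the mean of both lists ran from 5.32 in Actb and 5.15 in Actg1 to 0.264 in Actn1 and 0.141 in Actn4.

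**Figure D2:**
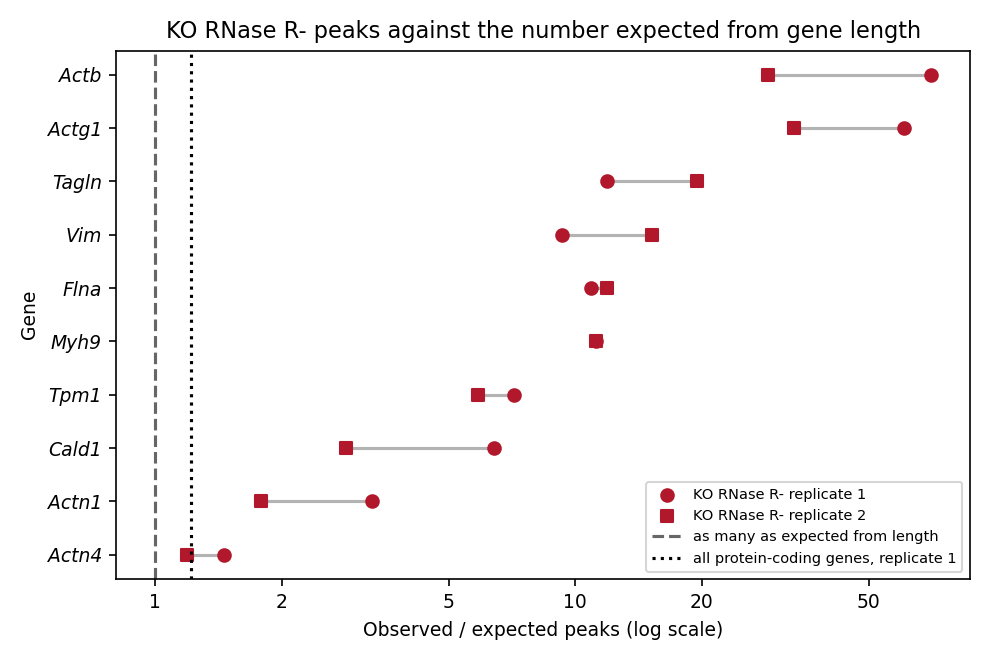
Observed over expected number of KO RNase R- peaks per gene (log axis), with 1 point for each replicate list. The 2 actins lie at 28.7 or higher in both lists, and Actn4 lies near the value of all protein-coding genes (1.22).

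Fewer peaks were called with RNase R at some of the genes. In KO cells both RNase R- lists were above both RNase R+ lists for Actb, Actg1, Myh9, Flna, Actn1 and Tagln, 6 of 10 genes, against 19.7% of protein-coding genes. For Vim, Tpm1, Actn4 and Cald1 the lists of both treatments overlapped or tied. The KO RNase R+ lists are themselves smaller than the KO RNase R- lists, and the peaks at the 10 genes made up 0.145% and 0.106% of the KO RNase R- lists and 0.267% and 0.167% of the KO RNase R+ lists.

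Merged over all lists, the 101 peaks formed 44 regions, 43 of which had a KO RNase R- peak. Of these, 27 had a peak at the gene in both KO RNase R- lists. Merged within KO RNase R- alone, without regard to the edge of a flank, 28 of 43 regions at the 10 genes (65.1%, 95% Wilson interval 50.2 to 77.6) were called in both replicates, against 34.4% of regions at protein-coding genes and 32.2% of all regions. The intervals here cover counting error only. ciR-loop peaks were found in 15 regions, 14 of which also had a KO RNase R- peak. The exception was 1 Cald1 region, called in KO RNase R+ replicate 1. Of the 27 regions in both KO RNase R- lists, 13 (48.1%, 30.7 to 66.0) overlapped a ciR-loop peak, against 27.1% of all regions in both lists. Of the 16 regions in 1 KO RNase R- list, 1 did. In total, 8 regions were called in all 4 KO lists: 3 in Cald1, 2 in Myh9 and 1 each in Actg1, Actn4 and Tpm1.

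Regions lay at the start of most of the genes, and also near the end of the 2 genes with the most peaks. Of the 10 genes, 9 (all but Flna) had a summit in the first 25% of the body in both KO RNase R- lists, against 9.03% of protein-coding genes. In the last 25%, 2 (Myh9 and Cald1) had one in both, against 7.22%. These shares mix the presence of peaks with their position, since most protein-coding genes had no peak in both lists. Of the 5803 protein-coding genes that did, 1981 had such a summit in the first 25% and 1585 in the last 25%. Of the 26 regions called in both lists with their summit inside a body, 12 lay in the first 25%, 6 in the middle and 8 in the last 25%. Of the summits inside the bodies, 23.5% and 18.8% lay in the first 10% of the body in KO RNase R- and 43.8% and 44.4% in KO RNase R+. The corresponding shares for all protein-coding genes were 12.9%, 12.9%, 13.3% and 12.2%. In the first 25% the shares were 41.2% and 40.6% in KO RNase R- against 28.4% in both lists for all genes, and 50.0% and 55.6% in KO RNase R+ against 28.8% and 28.4%. The KO RNase R+ shares rest on 16 and 9 summits, of which 7 and 4 lay in the first 10% of the body. By annotation, the 27 regions had their summits in introns (14), coding exons (9), exons of noncoding transcripts (2) and the flank past the 3′ end (2).

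**Figure D3:**
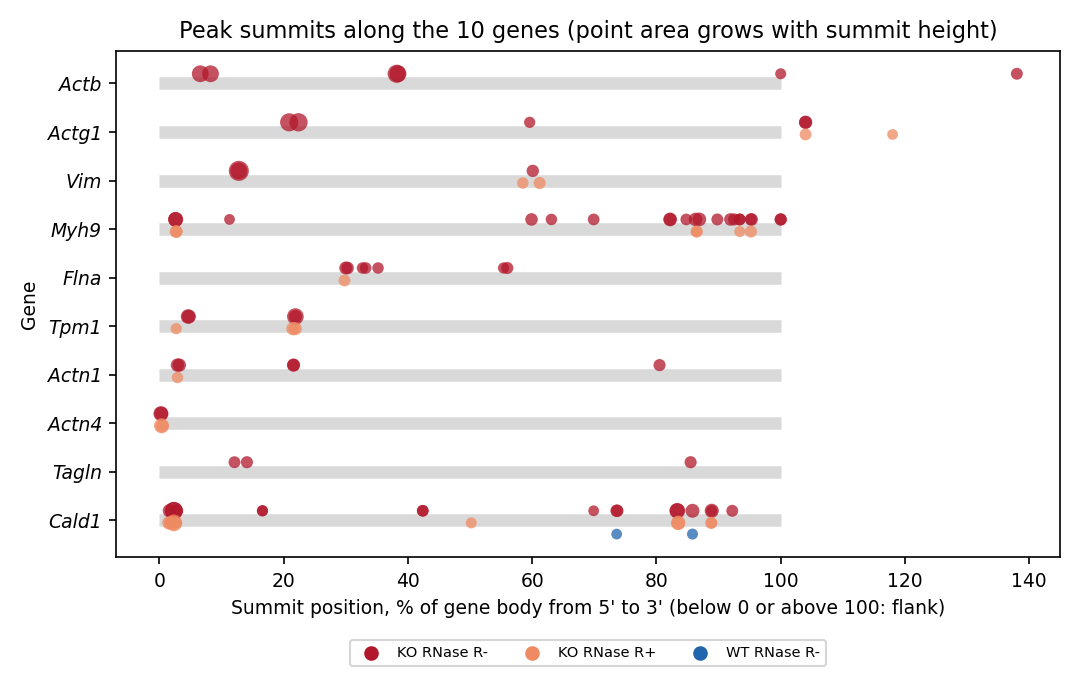
Position of each peak summit along the gene body in percent from 5′ to 3′ (grey bar), by group, with point area growing with the number of fragments at the summit. The 4 Actn4 summits lie at the 5′ end and the Tpm1 summits in the first 25% of the body, while Myh9 and Cald1 have summits near both ends and between them.

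Peaks at the 10 genes had higher and wider medians than the whole lists in KO RNase R-. The median fold enrichment was 8.85 and 9.19 against 6.94 and 6.86 in the whole lists, the median summit 17 and 17.5 fragments against 13 and 14, and the median width 425 and 387 bp against 248 and 255 bp. The ciR-loop peaks at the 10 genes were also wider in the median (378 and 475 bp against 283 and 278 bp), while their median folds of 6.23 and 8.35 against 6.76 and 6.88, and summits of 14 and 17.5 fragments against 14 and 14, did not exceed those of the list in replicate 1. Single peaks ranged from a fold of 4.15 to 24.2 in KO RNase R-. The DNA had been cut with MseI, DdeI, AluI and MboI, and peak edges follow the cuts: 70.8% of the 144 KO RNase R- peak edges at the 10 genes lay within 5 bp of a site of these 4 enzymes, against 18.7% of all positions of the genes. Over the whole KO RNase R- lists the share was 74.1% and 75%. The part of restriction fragments in the width of a peak was not tested.

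Base composition at the summits of the 10 genes differed from that of other peaks in the same lists by the measures below, which are given as descriptions. In the 200 bp about the summit, the median G+C was 53.5% and 56.8% in the KO RNase R- peaks at the 10 genes and 45.0% in both lists for peaks at protein-coding genes, and the median number of CpG was 3 and 4 against 1 and 1. The genes themselves hold between 43% (Cald1) and 56.0% (Actg1) G+C, and 58 of 72 peaks exceeded their own gene. The gene's strand held more G than C at 73.7% and 82.4% of the peaks, against 57.8% and 56.9% of peaks at protein-coding genes. In KO RNase R+ this held for 94.1% and 90.0% (16 of 17 and 9 of 10), against 61.3% and 56.8%.

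Runs of at least 30 purines or pyrimidines were counted on both strands at once. A purine run on 1 strand is a pyrimidine run on the other. Such runs were common in the lists and had a lower share at the 10 genes than in the whole lists. The length of 30 was chosen after the sequences had been seen. Such a run lay within the 200 bp at the summit of 49.5% and 49.4% of all KO RNase R- peaks and 48.3% and 50.6% of all KO RNase R+ peaks, but at 2.63% of windows placed every 5000 bp of the genome. At the 10 genes the share was 21.1% and 17.6% in KO RNase R- and 17.6% and 2 of 10 peaks in KO RNase R+, against 2.53% of windows across the same genes. Only 8 of the 44 regions held one at the summit, all in Cald1, Tagln and Vim, and both WT peaks did. The sites of the 4 enzymes each contain purines and pyrimidines, so a pure run cannot be cut within, as in the Cald1 intron 3 sequence above, which holds 0 sites in 220 bases. The part of this in the peaks was not tested. When R-loop peaks were divided by this feature, the 10 genes held 30 and 28 peaks without a run, 11.9 and 9.09 times the number expected from such peaks alone, and 8 and 6 with a run, 3.25 and 2.0 times. For all protein-coding genes the ratios were 1.48 and 1.45 without a run (8036 and 9699 peaks) and 0.963 and 0.964 with one (5144 and 6270 peaks). A low share of runs was not particular to the 10 genes. The other actin cytoskeleton genes described below held 17 and 20 peaks with a run and 78 and 82 without. The intermediate filament and tubulin genes held 3 and 3 with a run and 10 and 12 without. Without a run, the ratios were 5.83 and 4.99 for the former and 9.3 and 9.09 for the latter.

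**Figure D4:**
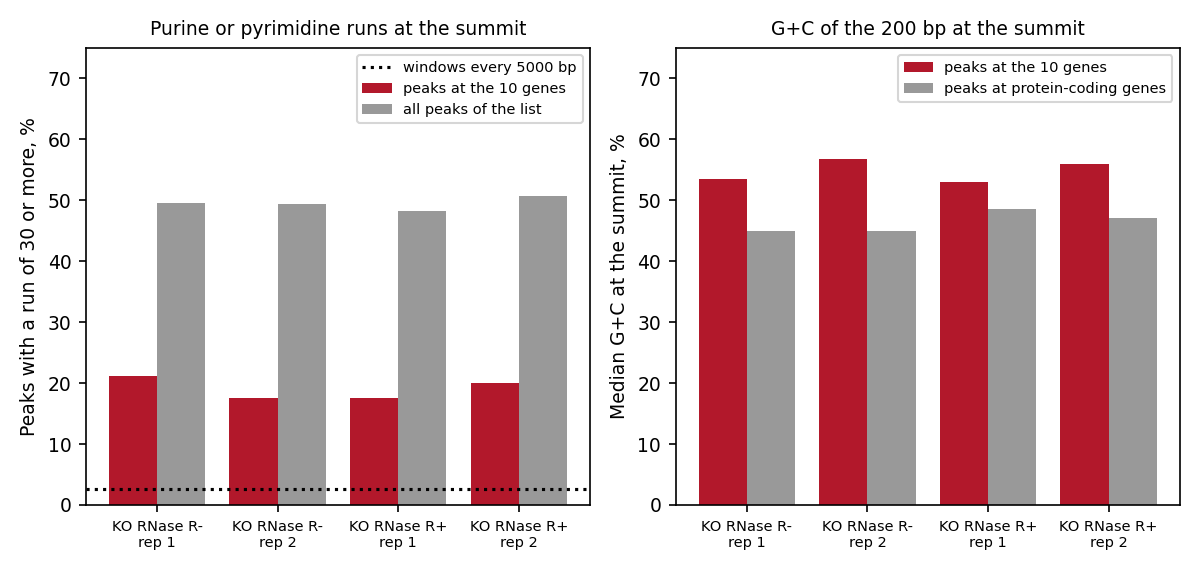
Left, share of peaks with a purine or pyrimidine run of at least 30 bases in the 200 bp at the summit, for peaks at the 10 genes (red), whole lists (grey) and genome windows (dotted line). Right, median G+C of the same 200 bp, for peaks at the 10 genes (red) and at all protein-coding genes (grey). In each of the 4 KO lists, peaks at the 10 genes had a lower share of runs than the whole list. They also had more G+C than peaks at protein-coding genes.

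Other genes of the cytoskeleton, and genes of muscle, were counted in the same way. These lists too were chosen with earlier results of these data known. Genes were assigned to them by hand, for example Flnc and Lmod1 to the cytoskeleton and Actg2 and Myh11 to muscle. The contrast between the lists depends on this assignment. Of 54 other actin cytoskeleton genes, 34 (63.0%) had a peak in both KO RNase R- lists, against 26.5% of protein-coding genes, and 12 had none in either. A ciR-loop peak in both KO RNase R+ lists was found in 14, against 5.85% of protein-coding genes. A WT RNase R- peak was found in 5, against 6.91%. The shares of these lists were not taken by length. The 54 genes held 95 and 102 R-loop peaks, 3.58 and 3.15 times the expected number. The most were found in Myh10, the heavy chain of non-muscle myosin IIB (8 and 8), Lima1, an actin-bundling LIM protein (9 and 6), Flnc, filamin C (5 and 6), Cnn2, a calponin (5 and 5), Mrtfa, an actin-regulated coactivator of serum response factor (4 and 6), and Lmod1, the actin nucleator leiomodin 1 (3 and 5). Of 15 genes of intermediate filaments and tubulins, 5 (33.3%) had a peak in both lists, near the 26.5% of protein-coding genes, and 8 had none in either. The 5 were Lmna (5 and 7), Tubb5 (2 and 3), Tubb4b (2 and 2), Tuba1a (2 and 1) and Lmnb1 (1 and 1). The 13 and 15 peaks of all 15 genes were 6.11 and 5.76 times the expected number, and Lmna weighs on this ratio.

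By contrast, 30 genes of striated and smooth muscle contraction held 5 and 7 KO RNase R- peaks, 0.409 and 0.469 times the expected number. Only some of them, such as the actin, myosin and alpha-actinin genes, encode relatives of the same proteins. Ttn (279 kb, 0 and 0 peaks) and Neb (242 kb, 0 and 1) make up a large part of the 1260 kb of these genes and weigh on this ratio. In KO RNase R+ the muscle genes held 2 and 3 peaks, 0.678 and 1.08 times the expected number. Of the 30, 2 (6.67%) had a peak in both KO RNase R- lists, against 26.5% of protein-coding genes, and 21 had none in either. The 2 with a peak in both were Myh11 (2 and 1), a smooth muscle myosin, and Tnni1 (1 and 1), a skeletal muscle troponin. The median ratio per gene over both lists was 11.3 for the 10 genes and 3.00 for the other actin cytoskeleton genes. It was 0 for the intermediate filament and tubulin genes, for the muscle genes and for all protein-coding genes.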

How the data were processed

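Peak lists of 8 S9.6 immunoprecipitates were used. The labels list 16 samples, and the 8 inputs and the added E. coli DNA were not analysed here. The authors trimmed reads with cutadapt, aligned them with Bowtie2 (mm10, the same build as GRCm38), removed duplicates, reads with over 3 mismatches and reads without a unique position with SAMtools 1.1, and ran MACS2 on each replicate at a q of 0.001. The control given to the caller is not given in the sources used here. The deposited lists give the fold enrichment as a ratio, and p and q as −log10 values. The names in the list of WT RNase R- replicate 1 are those made for replicate 2, while its values differ, and the GEO record was followed.

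Expected numbers were the peaks of a list times the gene's span plus the mean peak width, over the assembled nuclear chromosomes. Summit heights were recovered from fold and p as whole numbers under a Poisson distribution, for 94.62% to 99.87% of each list. Lists hold no read totals, and peak numbers were not adjusted for the read numbers that the study reports. Genotype was tested per gene by an exact permutation test within RNase R treatment over 10037 genes. The replicates are separate samples, but nothing says that they came from separate cultures, so spreads may be technical. Analyses used Python 3.11.15, numpy 2.4.6, pandas 2.3.3 and scipy 1.17.1, and the counting was tested on simulated data. The 10 genes and the gene lists were chosen with earlier results of these data known. The 10 genes are all named, regions called in both replicates of a group are described, and up to 6 genes of each other list, those with the most KO RNase R- peaks called in both lists, are named. Alternatives were other flanks, summits, thresholds on q and fold, equal list sizes, other densities, each replicate left out, and a replicate block. Some sequences are not reported here.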

Additional observations from a re-analysis of the deposited data

How the results depend on the processing

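Of 62 alternative values, 53 stayed within 1.5 times the reported one and 9 did not. The 72 KO RNase R- peaks at the 10 genes became 28, and the 27 KO RNase R+ peaks became 2, when each KO list was reduced to the number of peaks in the same-numbered WT list, which removes peaks by construction. Leaving out 1 replicate and doubling the other gave 68 to 76 KO RNase R- peaks, 20 to 34 KO RNase R+ peaks, 0 to 4 WT RNase R- peaks and 0 to 0 WT RNase R+ peaks, and the 2 WT peaks rest on WT RNase R- replicate 1. The ratio of observed to expected KO RNase R- peaks, 6.51 over both lists, ranged from 5.59 to 7.64 with 1 replicate left out and from 5.52 to 7.16 under the planned changes of density, flank, summit and threshold. In alternatives chosen after seeing the data it was 10.4 for peaks without a purine or pyrimidine run, 2.56 for peaks with one, and 6.43 without Myh9 and Cald1. The WT RNase R- ratio of 1.76 was 2.77 at a −log10 q of at least 5, and 0 to 2.74 with 1 replicate left out. At equal list sizes, both KO lists stayed above both WT lists without RNase R in 7 genes, against 2.9% of protein-coding genes. With 1 replicate left out, the remaining KO list was above the remaining WT list in 10 genes. KO also exceeded WT inside each same-numbered pair in 10 genes. These values of 10 follow from the complete lists, where both KO lists were above both WT lists in all 10 genes. They could not have differed and are no separate check, though they are counted among the 53. A sign-flip test over same-numbered pairs called 0 genes, its smallest possible p being 0.125. No pairing of samples by replicate number was detected. The differences between replicates correlated by 0.00278 (RNase R-, 1280 genes) and 0.0533 (RNase R+, 106 genes) across genotypes. With few peaks per gene, this cannot show that same-numbered samples were handled apart. The small number of peaks limits what the WT lists show: fewer than 1 peak at the 10 genes was expected in each.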
